A study of Mus musculus with 4 samples.

Results

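The transcription factors that hold mouse embryonic stem (mES) cells in the naive state of pluripotency were examined for a response to loss of Zfp574, a zinc-finger protein. They were 10 genes chosen by name from the 12486 genes of the PRO-seq count table (Pou5f1, Sox2, Nanog, Klf2, Klf4, Klf5, Esrrb, Tfcp2l1, Tbx3 and Nr0b1), and all 10 passed the filter on low counts, as did 11853 genes in all. Every library came from one mES cell line that is diploid, grows without feeders in serum and LIF, carries an auxin-inducible degron (AID) at the N terminus of Zfp574, and derives from a clonal parental line that expresses OsTir1, ARF16 and mCherry from an EF1a promoter cassette. The 2 control libraries were made from cells at 0 h with no auxin, and the 2 depletion libraries from cells after 6 h in 500 uM of the auxin IAA, so that time in auxin and loss of Zfp574 cannot be told apart. Auxin-treated cells without the tag were not analysed here. PRO-seq lets RNA polymerase add a labelled nucleotide in isolated nuclei and maps that last base, and the counts therefore follow polymerase at work on a gene, not the amount of mature RNA.

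As background, Pou5f1 (Oct4) and Sox2 bind DNA as a pair on composite sites and, with Nanog, occupy enhancers of their own genes and of most other genes of the network. The Kruppel-like factors Klf2, Klf4 and Klf5 overlap in function, Esrrb, Tfcp2l1 and Tbx3 can each sustain self-renewal when LIF or Nanog is limiting, and LIF acts through Jak kinases and Stat3. Many genes of this network are known to be shut off early when mES cells leave the naive state.

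The 3 core factors are shown first by the 250 bases before the RefSeq start nearest to the GENCODE start (GRCm38.p6, the mm10 assembly), so that the letters that Oct4 and Sox2 are known to read can be seen where they occur. The Pou5f1 stretch is chr17:35505782-35506031, the Sox2 stretch chr3:34649745-34649994 and the Nanog stretch chr6:122707239-122707488, all on the plus strand. Capitals mark an exact match on either strand to the octamer letters ATGCAAA, the Sox letters ACAATG, the GC box letters GGGCGG (read by Sp and Klf factors), the Esrrb letters AAGGTCA, the TATA letters TATAAA or the Stat letters TTCNNNGAA.
Pou5f1: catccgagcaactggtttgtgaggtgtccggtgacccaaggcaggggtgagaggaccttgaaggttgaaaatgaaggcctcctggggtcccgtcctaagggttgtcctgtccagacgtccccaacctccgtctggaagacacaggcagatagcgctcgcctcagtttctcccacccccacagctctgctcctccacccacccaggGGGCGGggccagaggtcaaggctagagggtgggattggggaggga
Sox2: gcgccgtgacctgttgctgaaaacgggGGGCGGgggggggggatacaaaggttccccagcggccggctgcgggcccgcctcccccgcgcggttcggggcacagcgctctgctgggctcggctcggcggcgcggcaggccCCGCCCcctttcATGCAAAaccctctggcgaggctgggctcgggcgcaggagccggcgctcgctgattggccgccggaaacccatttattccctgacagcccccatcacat
Nanog: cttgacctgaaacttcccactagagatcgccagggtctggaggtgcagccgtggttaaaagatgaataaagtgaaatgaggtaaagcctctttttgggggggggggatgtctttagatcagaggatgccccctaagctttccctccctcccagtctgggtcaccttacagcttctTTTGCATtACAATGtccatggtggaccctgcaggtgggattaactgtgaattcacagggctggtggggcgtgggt
Pou5f1 held a GC box match and neither octamer nor Sox letters. Nanog held an octamer match and a Sox match 1 base apart, and Sox2 held an octamer match. Of the 10 genes, 8 had a window in the RefSeq promoter table, all but Klf5 and Tbx3. Octamer letters occurred in 2 of the 8 and in 4.12% of all 32851 windows, Sox letters in 1 of the 8 and in 10.7%, and GC box letters in 4 of the 8 (Pou5f1, Sox2, Klf2 and Klf4) and in 32.7%. TATA letters stood in 2 of the 8 (Tfcp2l1 and Nr0b1) and in 12.4% of all windows, Stat letters in 1 (Esrrb) and in 7.02%, and Esrrb letters in 0 of the 8 and in 4.08%. The stretches ran from 3 CpG dinucleotides in Nanog and 6 in Esrrb to 29 in Klf2 and 32 in Klf4, against a median of 6 over all windows. These matches describe letters and not bound sites. The RefSeq start of Sox2 lay 410 bases from the GENCODE start, and the other 7 starts lay within 29 bases of theirs.

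Total counts per library were 3298864 and 3616429 for the controls and 6045216 and 5670904 for the depletion libraries. Intervals from these counts cover 2 samples per group only, and the fit moderates the variance of each gene with that of the other genes. Their width therefore does not rest on the replicates of that gene alone. Levels are given as CPM, the counts relative to library size after TMM scaling, under which all genes tested had a median log2 fold change of -0.002. In the degron design the counts of Zfp574 do not measure loss of its protein. They were 80 and 130 at 0 h and 195 and 219 at 6 h, with a log2 fold change of 0.25 (SE 0.14, adjusted p = 0.406). Adjusted p values throughout come from the quasi-likelihood test of edgeR, adjusted by Benjamini-Hochberg over all genes tested, unless another tool is named. For scale, the exoribonuclease gene Xrn1 fell by 2.79 and the ribosomal protein gene Rpl10 fell by 1.30 on the log2 scale in the same fit.

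No change was detected in any of the 10 factors after depletion. At an adjusted p under 0.05 by edgeR, 0 of 10 were lower and 0 were higher, against 1.4% and 1.11% of all genes tested. At the study's further threshold of at least 2-fold, 0 were lower and 0 higher, against 0.321% and 0% of all genes, of which 7 were at least 2-fold higher at an unadjusted p under 0.05. At an unadjusted p under 0.05 the count was 0 of 10, whereas 16.2% of all genes reached that level, and DESeq2 and limma-voom also called 0. That count depended on the scaling, the model and the libraries kept, and the fold changes also moved with the libraries kept. The count reached 5 of 10, all lower, with the size factors recovered from the deposited table, beside 20.5% of all genes, as described with the scaling. The log2 fold changes lay between -0.13 (Pou5f1) and 0.08 (Klf4), 5 below 0 and 5 above, with a median of 0.005. Depletion libraries lay both below both controls in 2 factors (Esrrb and Nr0b1) and both above in 3 (Klf4, Tfcp2l1 and Tbx3), and the groups overlapped in the other 5. Over all genes, 22.9% were separated downward and 23.4% upward.

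The precision of these values sets how large a change could have been missed. In the edgeR fit under TMM, the 95% intervals of all 10 factors stayed within 0.32 of 0 on the log2 scale. So did those of 38.3% of all genes tested, and 93.0% of all genes stayed within 2-fold. The median standard error of the log2 fold change was 0.06 over the factors and 0.12 over all genes. It was lowest for Esrrb, at 0.04 with 5879 to 10421 counts per library, and highest for Pou5f1, at 0.09 with 277 to 480. For Pou5f1 the interval ran from 0.811 to 1.03 as a fold, and a fall that stays within it is compatible with these libraries. The interval is not a detection limit, and the smallest change that would have been called was not determined. In DESeq2 Pou5f1 had an SE of 0.14 and an interval of -0.39 to 0.14 on the log2 scale, and that of Nanog reached -0.36. With the recovered size factors the edgeR intervals reached furthest for Pou5f1, to -0.41, and Nanog, to -0.37.

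**Figure D1:**
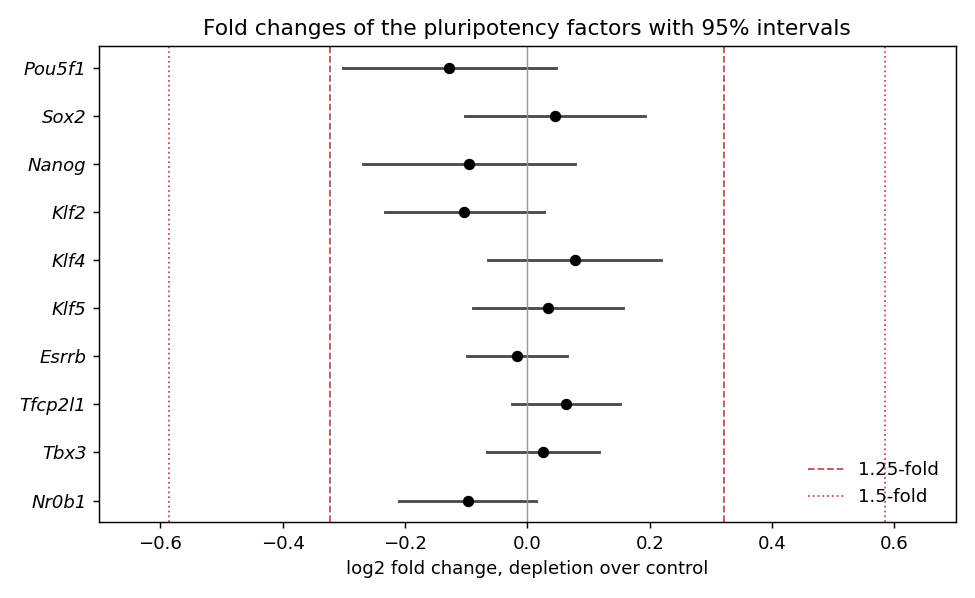
Log2 fold change (x axis, depletion over control) of each of the 10 factors, with points for the estimate and bars for the 95% interval of the edgeR fit over 2 control and 2 depletion libraries. All bars lie inside the dashed lines at 0.32 on either side of 0, and all of them cross 0.

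Of the core trio, Pou5f1 encodes the POU factor Oct4 (ENSMUSG00000024406, chromosome 17, 35506018 to 35510772, plus strand, mm10). It stood at 83.2 and 96.1 CPM at 0 h and at 80.6 and 84.0 CPM at 6 h. The lower control lay between the depletion libraries, and the controls differed more from each other than the group means did. The means were 89.7 ± 9.07 CPM (SD, n = 2) and 82.3 ± 2.38 CPM. This gave a log2 fold change of -0.13, with a 95% interval of -0.30 to 0.05 and an adjusted p of 0.496 by edgeR. This estimate was the lowest of the 10, and moved to -0.22 when control replicate 1 was left out and to -0.02 when control replicate 2 was.

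Sox2, the partner of Oct4 on composite sites (ENSMUSG00000074637, chromosome 3, 34650405 to 34652461, plus strand), stood at 126.5 and 127.2 CPM at 0 h and at 125.0 and 137.0 CPM at 6 h. Both controls fell between the depletion libraries. The log2 fold change was 0.05 (95% interval -0.10 to 0.19, adjusted p = 0.819 by edgeR), and it turned to -0.02 when depletion replicate 2 was left out and moved to 0.11 when depletion replicate 1 was. The whole 2057 bp of Sox2 lie inside the noncoding gene Sox2ot on the same strand, so nascent RNA of one can be counted for the other. Sox2ot itself had a log2 fold change of 0.002 (SE 0.05, adjusted p = 0.989 by edgeR).

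Nanog, a homeodomain factor that buffers exit from the naive state (ENSMUSG00000012396, chromosome 6, 122707489 to 122714633, plus strand), stood at 113.6 and 93.9 CPM at 0 h and at 99.6 and 93.8 CPM at 6 h. The gap between its controls, -0.27 on the log2 scale, was the largest such gap among the 10 factors, and the lower control and the lower depletion library were nearly level. The log2 fold change was -0.10 (95% interval -0.27 to 0.08, adjusted p = 0.634 by edgeR). Its sign turned with the controls, at 0.04 without control replicate 1 and -0.23 without control replicate 2.

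**Figure D2:**
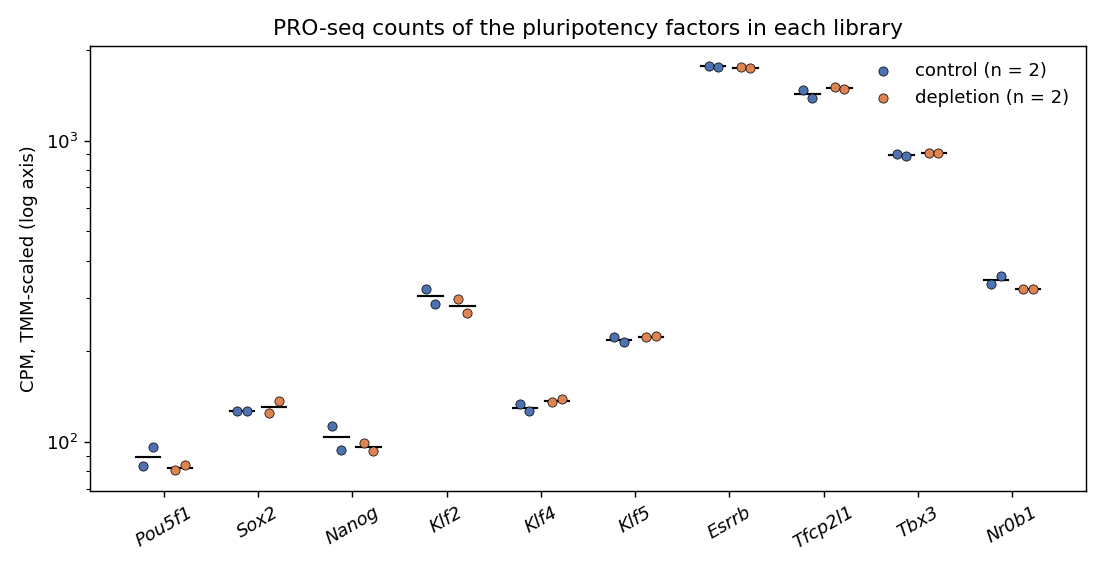
TMM-scaled CPM of each factor (y axis, log scale) in the 2 control and 2 depletion libraries, with horizontal lines at the group means. For each gene both groups sit at nearly the same height, such as Pou5f1 at 80.6 to 96.1 CPM and Esrrb at 1737 to 1767 CPM, heights that also depend on gene length, and the widest gap between replicates on the log scale is that of the Nanog controls.

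The Kruppel-like factors bind GC-rich promoters and enhancers through zinc fingers, and Klf4 and Klf5 respond to LIF. Klf2 (ENSMUSG00000055148, chromosome 8, 72319033 to 72321656, plus strand) stood at 323 and 287 CPM at 0 h and at 299 and 269 CPM at 6 h. The 4 values interleaved, and the replicates of each group lay further apart than the group means, 305 ± 25.6 and 284 ± 20.8 CPM (SD, n = 2). Its log2 fold change of -0.10 (95% interval -0.23 to 0.03) had an adjusted p of 0.452 by edgeR, and moved to -0.01 or -0.19 when control replicate 1 or 2 was left out, and to -0.18 or -0.03 when depletion replicate 1 or 2 was.

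Klf4 (ENSMUSG00000003032, chromosome 4, 55527143 to 55532466, minus strand) stood at 133 and 127 CPM at 0 h and at 136 and 139 CPM at 6 h, without overlap. Its log2 fold change of 0.08 was the highest of the 10 (95% interval -0.06 to 0.22, adjusted p = 0.638 by edgeR). Klf5 (ENSMUSG00000005148, chromosome 14, 99298691 to 99315036, plus strand) stood at 223 and 215 CPM at 0 h and at 223 and 226 CPM at 6 h. Its groups overlapped, with a log2 fold change of 0.03 (95% interval -0.09 to 0.16, adjusted p = 0.842 by edgeR). The difference between Klf2 and Klf4 was not tested.

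Esrrb, an orphan nuclear receptor, and Tfcp2l1, a Grainyhead-like factor downstream of LIF, had the most counts. Esrrb (ENSMUSG00000021255, chromosome 12, 86361117 to 86521628, plus strand) stood at 1767 and 1761 CPM at 0 h and at 1751 and 1737 CPM at 6 h. The groups did not overlap, and the means, 1764 ± 4.14 and 1744 ± 9.88 CPM (SD, n = 2), were close. The log2 fold change was -0.02 with a 95% interval of -0.10 to 0.07, the narrowest of the 10 (adjusted p = 0.893 by edgeR). Tfcp2l1 (ENSMUSG00000026380, chromosome 1, 118627945 to 118685168, plus strand) stood at 1472 and 1390 CPM at 0 h and at 1511 and 1479 CPM at 6 h. The depletion libraries lay above both controls by less than the controls lay apart, and the log2 fold change was 0.06 (95% interval -0.02 to 0.15, adjusted p = 0.5 by edgeR).

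Tbx3 is a T-box factor and Nr0b1 (Dax1) a nuclear receptor without a DNA-binding domain of the usual kind that interacts with Oct4 and Esrrb. Tbx3 (ENSMUSG00000018604, chromosome 5, 119670669 to 119684724, plus strand) stood at 906 and 888 CPM at 0 h and at 912 and 914 CPM at 6 h. Both depletion libraries lay just above both controls, with a log2 fold change of 0.03 (95% interval -0.07 to 0.12, adjusted p = 0.839 by edgeR). Its antisense neighbour Tbx3os1, which overlaps it by 697 bp on the other strand, had 3 to 10 counts per library and was not tested. Nr0b1 (ENSMUSG00000025056, chromosome X, 86191764 to 86195947, plus strand) stood at 334 and 355 CPM at 0 h and at 323 and 321 CPM at 6 h, both below both controls. It had the lowest adjusted p of the 10, 0.399 by edgeR, with a log2 fold change of -0.10 (95% interval -0.21 to 0.01). Of the 10 factors, 3 (Klf4, Esrrb and Nr0b1) had a difference between group means larger than both gaps between replicates, and 7 did not, against 33.3% of all genes tested that did.

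The shares of the factors in the libraries were also close between groups. The 10 genes together took 0.553% and 0.541% of all counts at 0 h, and 0.538% and 0.535% at 6 h. Esrrb contributed 32.1% to 33.0% of these counts in the 4 libraries, Tfcp2l1 26.03% to 27.7% and Tbx3 16.5% to 16.9%, while Pou5f1 contributed 1.48% to 1.80%, shares that also depend on gene length. In bulk nuclei, fewer cells transcribing a gene and less transcription per cell cannot be told apart.

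To compare levels between genes, counts were set against length, as CPM per kb of the GENCODE gene span. In the controls Klf2 was highest at 116 ± 9.77 CPM per kb (SD, n = 2), ahead of Nr0b1 at 82.4 ± 3.43, Tbx3 at 63.8 ± 0.903 and Sox2 at 61.7 ± 0.228. Tfcp2l1 at 25.0 ± 1.01, Klf4 at 24.4 ± 0.902, Pou5f1 at 18.9 ± 1.91, Nanog at 14.5 ± 1.95, Klf5 at 13.4 ± 0.343 and Esrrb at 10.99 ± 0.0255 CPM per kb followed. All of them stood high among the genes tested, whose median was 1.52 CPM per kb, since Esrrb exceeded 93.3% and Klf2 99.6% of genes. Klf2, Nr0b1, Pou5f1 and Esrrb kept ranks 1, 2, 7 and 10 in all 4 libraries. The neighbours Tbx3 and Sox2, Tfcp2l1 and Klf4, and Nanog and Klf5 overlapped over the 4 libraries, and each of these pairs changed order in at least 1 library. Esrrb spans 160.5 kb and Sox2 2.057 kb. Counts near the start, where polymerase pauses, weigh more in short genes, and the authors' own gene starts were corrected with CAGE data, so these levels are approximate.

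**Figure D3:**
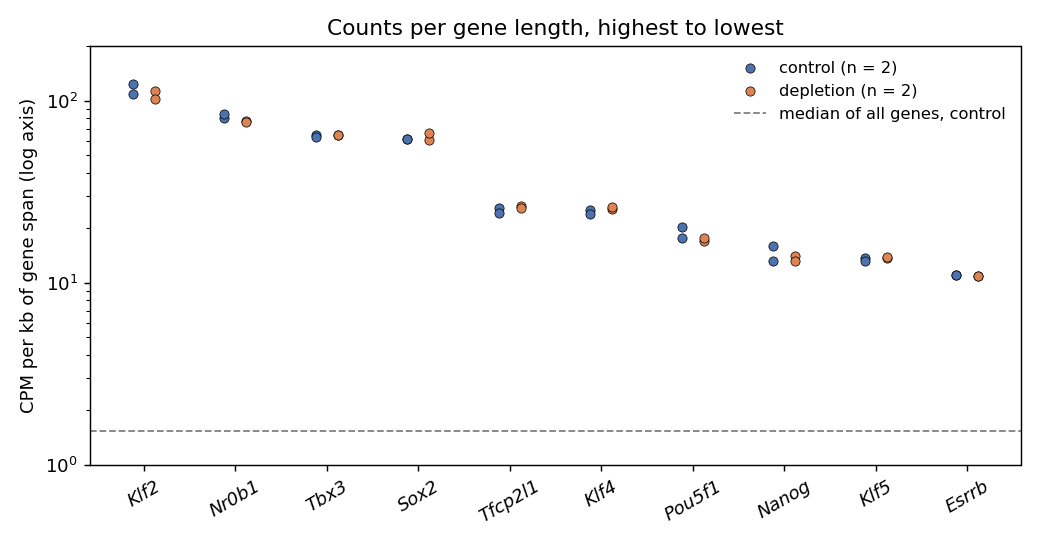
CPM per kb of gene span (y axis, log scale) of each factor in the 2 control and 2 depletion libraries, ordered by the control mean, with a dashed line at the control median of all genes tested, 1.52. All 10 factors lie far above the line, from Esrrb at 10.82 to 11.01 up to Klf2 at 103 to 123 CPM per kb, and the groups share the same order apart from neighbours that overlap.

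Fold changes in this series moved with gene length, and the factors span much of that range. Split into 10 classes by span, all genes tested had a median log2 fold change of -0.06 in the shortest class and 0.10 in the longest. Esrrb, in the longest class, differed from the median of its class by -0.12, and Klf4 from that of its own by 0.15. With a smooth trend on length removed from each library, Esrrb had a log2 fold change of -0.14 (SE 0.04) and an adjusted p of 0.0688 by edgeR, and Tfcp2l1 moved to 0.002. No factor passed the threshold in that fit.

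TMM takes most genes as unchanged, so the values under it are relative to other genes and cannot show a shift shared by most genes. The paper describes scaling by spike-in Drosophila cells as a way to detect possible global effects. Whether the recovered factors below hold such an effect was not tested. Another scaling moved all 10 the same way. The size factors behind the authors' deposited mean signal, recovered from it and the counts, shifted the median of all genes to -0.11. Under them all 10 factors were below 0, from -0.23 for Pou5f1 to -0.03 for Klf4, with a median of -0.10. Relative to the median of all genes, 5 were below and 5 above, as under TMM. The lowest adjusted p values by edgeR with these factors were 0.055 for Nr0b1 (log2 fold change -0.20) and 0.0579 for Klf2 (-0.21), and 0 of 10 passed. Before adjustment, 5 of the 10 (Pou5f1, Nanog, Klf2, Esrrb and Nr0b1) had a p under 0.05 with these factors, all lower, beside 20.5% of all genes, and 2 (Klf2 and Nr0b1) had one with library totals, beside 15.8%. With the length trend removed 1 (Esrrb, lower) had such a p, beside 13.6%, and with the replicate block 1 (Klf2, lower) had, beside 18%. Without control replicate 1 the log2 fold changes of Pou5f1, Nr0b1 and Tfcp2l1 were -0.22, -0.14 and 0.11. Without control replicate 2 those of Klf2 and Nanog were -0.19 and -0.23, and without depletion replicate 1 that of Klf2 was -0.18. Across the 14 settings, including those that left out 1 library, the 95% intervals of all 10 factors stayed within 1.5-fold in either direction, and reached furthest for Pou5f1 and Nanog, to -0.42 on the log2 scale.

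**Figure D4:**
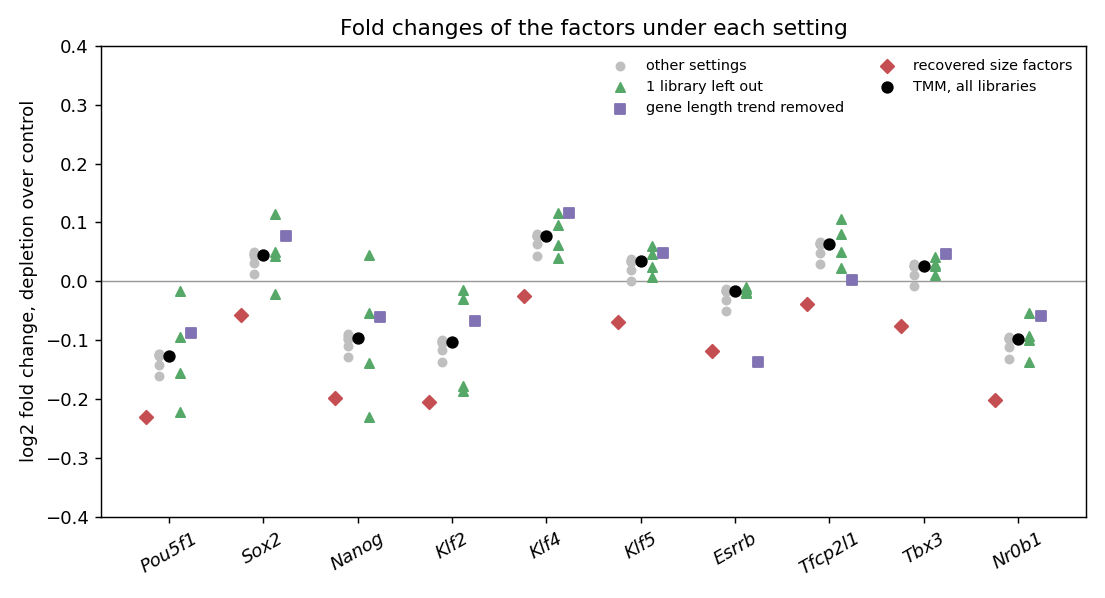
Log2 fold change (y axis, depletion over control) of each factor under 14 settings: TMM with all libraries (black circles), the recovered size factors (red diamonds), removal of a trend on gene length (purple squares), 4 fits with 1 library left out (green triangles) and the remaining alternatives (grey circles). The red diamonds lie below 0 for all 10 genes, and the green triangles spread furthest for Nanog, from -0.23 to 0.04.

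The signals that feed the network were described with a list of LIF and Stat3 genes. Of 10 tested, 1 was higher and 0 were lower by edgeR, beside 1.11% and 1.4% of all genes. At an unadjusted p under 0.05 there were 5, beside 16.2% of all genes. Of these 10 genes, limma-voom called the same 1 and DESeq2 called 0. Their median log2 fold change was 0.02, but -0.02 without control replicate 2 and 0.12 without control replicate 1, 0.0089 without depletion replicate 2, -0.08 with the recovered factors and -0.03 with the length trend removed. Jak1, a kinase bound to the LIF receptor complex, had 168 and 203 counts at 0 h and 432 and 368 at 6 h. It rose by 0.38 on the log2 scale (SE 0.10, adjusted p = 0.0323 by edgeR). The call was lost without control replicate 1 (log2 fold change 0.32, adjusted p = 0.175), depletion replicate 1 (0.31, 0.312) or depletion replicate 2 (0.45, 0.0695), with library totals (0.35, 0.0617), with the recovered factors (0.28, 0.0965), in DESeq2 (0.38, 0.807) and with the length trend removed (0.27, 0.185). Stat3, its target Socs3, a feedback inhibitor of Jak kinases, and the receptor genes Lifr and Il6st were picked after their values were seen. Stat3 had 448 and 533 counts at 0 h and 1014 and 882 at 6 h, with a log2 fold change of 0.22 (adjusted p = 0.0817 by edgeR), and Socs3 had 189 and 204 against 298 and 256, with -0.23 (adjusted p = 0.247). Lifr and Il6st had log2 fold changes of 0.09 and 0.12, with adjusted p values of 0.514 and 0.333.

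In the Wnt arm, where the repressor Tcf7l1 opposes the naive factors and beta-catenin (Ctnnb1) relieves it, 0 of 11 genes tested were called by edgeR. At an unadjusted p under 0.05 there were 3, beside 16.2% of all genes. Of the 11, limma-voom called 1 (Tcf7l1, higher) and DESeq2 called 0. The median log2 fold change was 0.12, with 9 of 11 above 0 beside 49.4% of all genes. It was 0.017 with the length trend removed and 0.014 with the recovered factors. Values were highest for the Wnt coreceptor gene Lrp5, at 0.22 (SE 0.07, adjusted p = 0.0896), and the Wnt target Axin2, at 0.17 (SE 0.33, adjusted p = 0.865), which had 12 to 26 counts per library. They were lowest for Ctnnb1, at -0.07 (SE 0.05, adjusted p = 0.531), and Lef1, at -0.02 (SE 0.12, adjusted p = 0.969).

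Of 26 other pluripotency regulators and markers, 21 were tested, 1 was lower and 0 were higher, beside 1.4% and 1.11% of all genes. The median log2 fold change was -0.05, but 0.02 without control replicate 2 and -0.16 with the recovered factors. The gene that fell was Utf1, a chromatin-associated gene transcribed under Oct4 and Sox2, with 129 and 172 counts at 0 h and 172 and 154 at 6 h. Its CPM fell from a mean of 42.9 to 28.2, a log2 fold change of -0.61 (SE 0.12, adjusted p = 0.00358 by edgeR), short of 2-fold. Both depletion libraries lay below both controls in CPM, and the call was lost without control replicate 2 (log2 fold change -0.46, adjusted p = 0.0742), without depletion replicate 2 (-0.57, 0.0795) and in DESeq2 (-0.61, 0.256). Zfp42 (Rex1), a marker of the naive state, had 1537 and 1824 counts at 0 h and 3189 and 2780 at 6 h, with a log2 fold change of 0.10 (SE 0.05, adjusted p = 0.357 by edgeR), and is named by choice after its value was seen.

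Markers of neighbouring states were read beside these values. Among formative and primed markers, 6 of 10 were tested and 0 called by edgeR, DESeq2 or limma-voom, with a median log2 fold change of -0.02. That median was -0.07 without control replicate 1, 0.18 without control replicate 2, 0.01 and 0.0049 without depletion replicates 1 and 2, and -0.12 with the recovered factors. Without either control library 7 of the markers were tested, so those medians cover another set of genes. By edgeR with all libraries, 1 of the 6 had an unadjusted p under 0.05, beside 16.2% of all genes. Among primitive endoderm markers 4 of 10 were tested, with a median of 0.17. It was 0.11 without either control library, 0.063 with the recovered factors and 0.056 with the length trend removed. Of the 4, 2 lay above 0 and 2 below, beside 50.6% of all genes below 0. Those below were Sox7, at -0.30 with 45 to 66 counts per library (adjusted p = 0.465 by edgeR), and Lama1, at -0.06 (adjusted p = 0.684). Lamb1, with 8 to 26 counts per library, was at 0.49 (adjusted p = 0.54). By edgeR 1 of the 4 was called higher, beside 1.11% of all genes. That gene, Col4a1, encodes a basement membrane collagen, had 227 and 219 counts at 0 h and 508 and 461 at 6 h, and rose by 0.39 on the log2 scale (SE 0.09, adjusted p = 0.0142 by edgeR), while the defining factors Gata4 and Gata6 were not among the rows analysed here and Sox17 had 1 to 8 counts per library. The call of Col4a1 was lost without control replicate 2 (log2 fold change 0.30, adjusted p = 0.139), depletion replicate 1 (0.36, 0.178) or depletion replicate 2 (0.42, 0.0816), with the recovered factors (0.29, 0.0541), in DESeq2 (0.39, 0.537) and with the length trend removed (0.28, 0.122).

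Trophectoderm markers had 5 of 9 tested and 0 called by edgeR, DESeq2 or limma-voom. At an unadjusted p under 0.05 by edgeR there were 0, beside 16.2% of all genes. Their median was 0.10, with summed levels of 41.8 and 51.6 CPM in the controls against 45.5 and 52.3 CPM at 6 h. The median turned to -0.06 when control replicate 1 was left out and to -0.04 when depletion replicate 2 was. It was 0.20 without either of the other libraries, and -0.0003 with the recovered factors. Without either depletion library 4 of the markers were tested. Germ layer markers had 5 of 8 tested and 0 called by edgeR, DESeq2 or limma-voom. The 5 were Sox1, Nes, Tubb3, Pax6 (19 to 74 counts per library) and Gsc (6 to 18), while T, Mixl1 and Mesp1 were not among the rows. All 5 log2 fold changes were above 0, beside 49.4% of all genes, with a median of 0.29 that was 0.17 without control replicate 1 and 0.18 with the recovered factors. Of these genes 2 had an unadjusted p under 0.05 by edgeR, beside 16.2% of all genes. The summed levels of the 5 were 91.1 and 99.6 CPM in the controls against 112 and 111 CPM at 6 h. Their part in the values of the 10 factors was not tested. Of 8 fibroblast markers 1 was in the table, Thy1, with 3 to 9 counts per library, and none of 11 markers of two-cell-like cells was among the rows, so both lists were not analysed here.

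**Figure D5:**
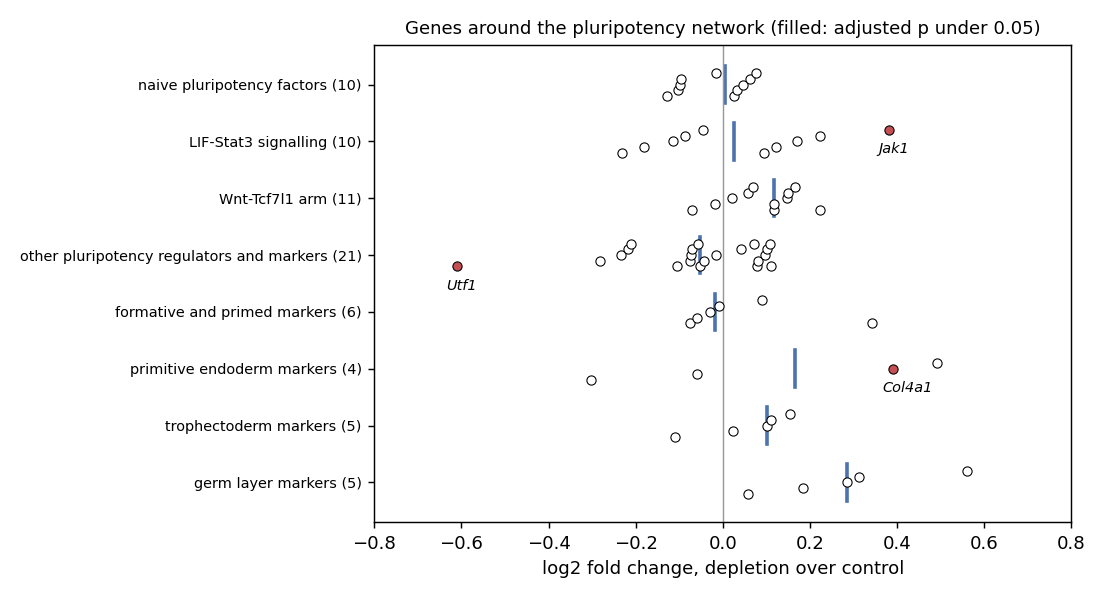
Log2 fold change (x axis, depletion over control) of each tested gene of the lists, 1 point per gene with the number tested in parentheses, filled where the adjusted p was under 0.05 by edgeR, and a blue line at the median of each list. The 10 factors run from -0.13 to 0.08, and 3 genes of the other lists are filled, Jak1, Utf1 and Col4a1.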

How the data were processed

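PRO-seq was made from 4 libraries, 2 per group, grouped by their titles. Per the submitters' notes and the methods, the authors trimmed adapters with cutadapt 1.18, mapped reads to mm10 with Bowtie 1.2.2 keeping unique best hits, collapsed them by molecular identifier, and counted the last nascent base by strand over Ensembl genes with CAGE-corrected starts. The deposited counts are whole numbers and not normalized. Copies of a gene that share sequence are undercounted. A table of the authors' DESeq2 comparison was also deposited, and only its mean normalized signal was used here, to recover the size factors. Its fold changes, p-values and error columns were not. The methods describe a Drosophila spike-in factor shared by replicates, but those recovered were 0.699 and 0.740 for the controls and 1.325 and 1.24 for the depletion libraries, a discrepancy not resolved here.

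Counts passed filterByExpr (minimum count 10, minimum total 15; 633 genes removed) and were scaled by TMM and fitted with edgeR 4.0.16 in R 4.3.3 (two-sided quasi-likelihood test on condition alone), with p values adjusted by Benjamini-Hochberg over all 11853 genes tested. Intervals are 95% and unadjusted. Alternatives used limma 3.58.1, DESeq2 1.42.0, other scalings and filters, a replicate block, a lowess offset on gene length and fits without 1 library. For 12474 identifiers the gene span was taken from GENCODE M21 (mm10), and promoter windows from RefSeq (GRCm38.p6). The scripts were tested on simulated counts. The labels call the samples biological replicates; their chi-square per degree of freedom was 1.88 between controls and 1.49 between depletion libraries, above sampling noise.

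The 10 factors and the lists were chosen with earlier results of these data known. Named genes were the 10 factors, listed genes past the threshold or else the highest and lowest 2 of a signalling or pluripotency list, Zfp574, Rpl10, Xrn1 and overlapping genes. Stat3, Socs3, Lifr, Il6st, Zfp42, Thy1, Pim1, Tdh and Tcf7l1 fall outside that rule, as do Gata4, Gata6, Sox17, Sox7, Lama1, Lamb1, the germ layer markers and the other Klf genes. They were named after their values were seen.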

Additional observations from a re-analysis of the deposited data

How the results depend on the processing

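No factor passed the threshold under any of the 13 alternatives, so that the counts of factors called lower and higher stayed at 0 in all of them, with or without the fold threshold. Of 130 alternative fold changes of the 10 factors, 122 kept their sign and 8 turned it. With the recovered size factors the log2 fold change became -0.057 for Sox2, -0.026 for Klf4, -0.069 for Klf5, -0.039 for Tfcp2l1 and -0.077 for Tbx3, and the median of the 10 became -0.10, beside -0.11 for all genes. With library totals Tbx3 was at -0.0078. Without 1 library the factors ranged from -0.22 to -0.02 (Pou5f1), -0.021 to 0.11 (Sox2, turned without depletion replicate 2), -0.23 to 0.045 (Nanog, turned without control replicate 1), -0.19 to -0.01 (Klf2), 0.04 to 0.12 (Klf4), 0.01 to 0.06 (Klf5), -0.020 to -0.010 (Esrrb), 0.02 to 0.11 (Tfcp2l1), 0.01 to 0.04 (Tbx3) and -0.14 to -0.05 (Nr0b1), and their median from -0.016 to 0.042. In these fits a group of 1 library is assumed to vary like the other group.

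Deviations of libraries of the same number correlated at 0.03 over all genes tested and at 0.11 over genes with a mean count of 100 or more, and since the labels do not tie a number to a shared batch or day and there are 2 pairs, the numbers were not taken as pairs. With the replicate block no factor was called and the lowest adjusted p by edgeR was 0.274. There 1 factor (Klf2) had an unadjusted p under 0.05, beside 18% of all genes. Calls over all genes rose from 166 lower and 132 higher to 300 and 366. The block gave 2 higher LIF and Stat3 genes (Jak1 and Stat3) and 2 higher Wnt genes (Lrp5 and Tcf7l1), where limma-voom gave 1. Higher LIF and Stat3 genes numbered 0 with library totals, the recovered factors, DESeq2 and the length trend removed, and the recovered factors gave 2 lower ones (Pim1 and Socs3) and 2 lower other pluripotency genes (Tdh and Utf1), which DESeq2 left at 0. Higher primitive endoderm markers numbered 0 with the recovered factors, DESeq2 and the length trend removed. Without 1 library, higher LIF and Stat3 genes ran from 0 to 2, and higher Wnt genes, higher germ layer markers, higher primitive endoderm markers, and lower and higher other pluripotency genes each from 0 to 1. Calls over all genes moved by over 1.5 times with the recovered factors (698 lower, 49 higher), library totals (202 and 64), DESeq2 (61 and 14) and the length trend removed (176 and 52), and without control replicate 2 (227 and 271), depletion replicate 1 (76 and 20) or depletion replicate 2 (79 and 45). Genes at least 2-fold lower numbered 38, and 8 where the filter asked for a mean count of 100 or more and fewer genes were tested. The cause of the other shifts was not tested. Asking for a mean count of 100 or more, which leaves fewer genes in the lists, put their medians at 0.08 (LIF and Stat3), 0.016 (formative and primed), 0.0087 (trophectoderm) and 0.17 (germ layer). With no filter Sox17, with 1 to 8 counts per library, joined the primitive endoderm list, whose median over 5 genes was then the value of Col4a1, 0.39. With library totals the median of LIF and Stat3 was -0.009, and with the length trend removed that of formative and primed markers was 0.017. CPM per kb moved by less than the replicate SD with the longest transcript span as the length. Pou5f1 and Nanog had the fewest counts and the highest standard errors, 0.085 and 0.084, beside 0.074 and 0.069 from counting alone. The parts of depth and of replicate variation in these errors were not tested.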

Other observations

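The other Kruppel-like genes of the table were read for comparison with Klf2, Klf4 and Klf5, a list chosen after the values were seen. By edgeR, DESeq2 and limma-voom 0 of 11 were called. By edgeR 2 had an unadjusted p under 0.05 (Klf12 and Klf16), beside 16.2% of all genes, and the lowest adjusted p was 0.14. The log2 fold changes of the 11 ran from -0.28 to 0.09 with a median of -0.007, 7 of them below 0. The lowest was Klf16 (215 and 259 counts at 0 h, 355 and 291 at 6 h) and the highest Klf6 (355 and 400 against 709 and 618). Klf9 had the most counts (6003 and 6291 against 11107 and 10254), with a log2 fold change of 0.07.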
